A study of Homo sapiens with 36 samples.

Results

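The data described here are 6 of the 36 Illumina expression beadchips of a time course of WA09 cells, a widely used line of human embryonic stem cells. They are all 3 arrays whose source label reads NC at day 6 and all 3 whose source label reads DSi at day 6, and all 22831 genes that could be tested were compared. Both groups were grown on matrigel with 100 nM LDN-193189 and 10 µM SB431542, which block the type I receptors of the BMP branch and of the activin, Nodal and TGF-beta branch; DSi stands for this dual SMAD inhibition. The NC (neural crest) cultures received 3 µM CHIR 99021 as well, an inhibitor of the kinase GSK3, and no other difference in treatment is given, so the comparison asks what CHIR 99021 added by day 6. The titles of NC and DSi arrays also carry different codes, whose meaning is not given. The other 30 arrays belong to 10 groups of 3, among them NC and DSi at days 3, 8 and 11, a BE (melanocyte) condition, and cells of days 0 and 1. The labels do not say whether replicates came from separate cultures, so p-values here reflect the spread among the arrays alone, and that spread may be technical. The cells had been kept on mouse embryonic fibroblasts before plating. RNA came from whole cultures, and fewer cells of a type and less RNA per cell cannot be told apart in these values.

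As background, GSK3 marks beta-catenin for destruction, and when it is blocked beta-catenin enters the nucleus and switches on genes with TCF and LEF factors, many of which feed back on the pathway. In the vertebrate embryo, ectoderm that escapes BMP and Nodal signals takes on an anterior neural character by default, and WNT signals shift it towards posterior and lateral fates. Neural crest arises at the border between neural plate and surface ectoderm under WNT signals, then leaves the neural tube and forms peripheral neurons, glia, pigment cells and facial skeleton.

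The windows in front of a pair of WNT feedback genes are shown first, because TCF and LEF factors are known to bind short DNA motifs near such genes. SP5, a transcription factor gene that is a direct target of beta-catenin, was among the genes higher in NC, and DKK1, which encodes a secreted WNT inhibitor, was not past the threshold. Both windows below are RefSeq promoters (GRCh38.p14, 250 bases before to 50 after the start of the gene), lie on the plus strand at chr2:170715087-170715386 and chr10:52314031-52314330, and are printed 5′ to 3′ with a match to CTTTGAT or CTTTGTT, short forms of the site bound by TCF and LEF factors, in capitals.
SP5: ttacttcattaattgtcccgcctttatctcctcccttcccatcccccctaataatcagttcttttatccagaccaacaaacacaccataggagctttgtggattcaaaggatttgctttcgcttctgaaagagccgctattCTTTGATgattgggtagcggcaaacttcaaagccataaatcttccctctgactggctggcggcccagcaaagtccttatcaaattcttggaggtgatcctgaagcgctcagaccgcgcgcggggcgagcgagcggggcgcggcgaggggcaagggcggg
DKK1: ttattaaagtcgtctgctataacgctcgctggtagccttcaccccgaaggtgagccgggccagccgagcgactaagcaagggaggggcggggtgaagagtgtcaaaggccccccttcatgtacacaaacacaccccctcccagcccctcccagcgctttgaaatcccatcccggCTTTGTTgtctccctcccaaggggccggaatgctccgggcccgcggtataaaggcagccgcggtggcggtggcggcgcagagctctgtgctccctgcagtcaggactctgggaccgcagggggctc
The SP5 match starts 109 bases before the start of the gene and the DKK1 match 76 bases before it. Both strands were searched, and the 2 motifs cannot start at the same base. Of all 35116 promoter windows in the table, 7.6% held at least 1 match. Among genes with a window, the share was 7.5% of the 429 that were higher in NC and 10.0% of the 429 that were lower, and 3 of 7 WNT feedback genes had one. Both genes shown are among these 3. Only 7 of the 13 listed feedback genes had a window, and AXIN2 and NKD1 had none. A match is a description of these letters, not a site shown to be used.

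The 6 arrays detected between 35.5 and 40.4% of the 47323 probes, within the range of the series. Over the log2 values of all genes, arrays of NC correlated with each other at 0.976 to 0.983 and arrays of DSi at 0.975 to 0.986, against 0.962 to 0.972 between the groups. DSi replicate 3 was the DSi array closest to NC for 329 of the 621 genes that were lower in NC (53.0%), against 147 and 145 for replicates 1 and 2. For the 610 genes higher in NC the counts were 218 (35.7%) for replicate 3 and 183 and 209 for replicates 1 and 2. The part of this array in the results was not tested beyond leaving it out, which gave 1097 calls, 921 of them among the 1231 described next and in the same direction.

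In all, 1231 of 22831 genes differed between NC and DSi at day 6 (5.39%), with 610 higher in NC (2.67%) and 621 lower (2.72%), at an adjusted p under 0.05 in limma with Benjamini-Hochberg adjustment over all genes. The log2 difference was above 1 for 264 of the higher genes and below -1 for 264 of the lower ones, and it passed 3 in either direction for 15 and 20. The median over all genes was 0.00. Of the 1231, 1174 had all 3 arrays of one group above all 3 of the other, as did 19.5% of all genes tested. With arrays scaled to a common median in place of quantile normalization, 604 genes passed, 342 of them higher and 262 lower.

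**Figure D1:**
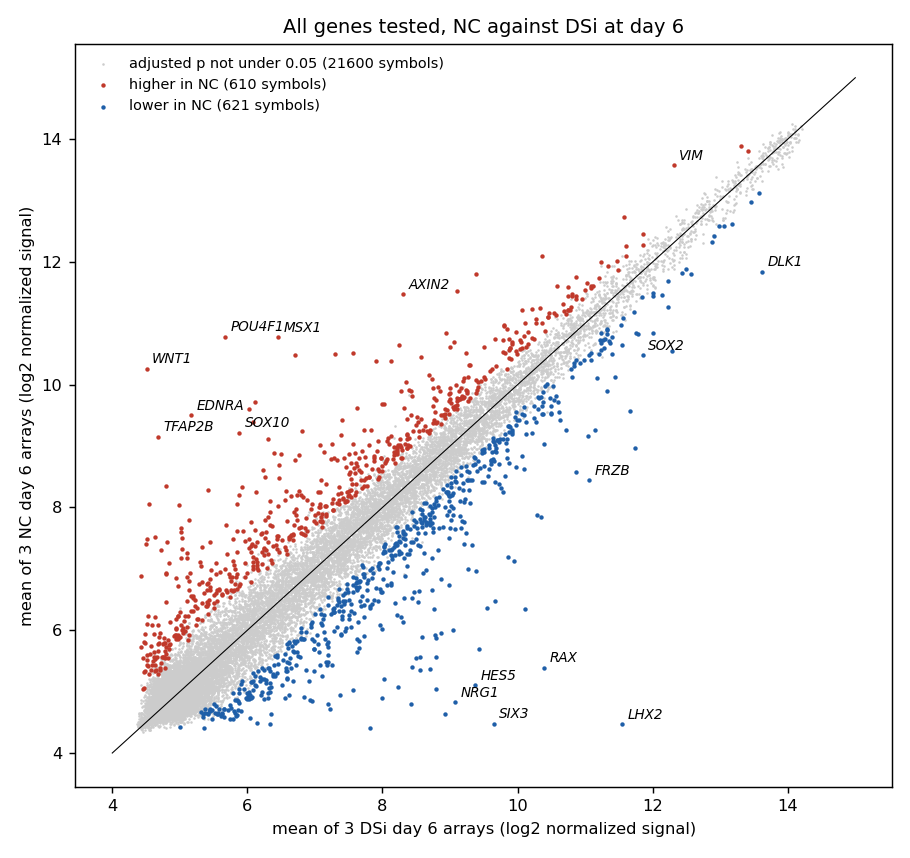
Mean log2 normalized signal of the 3 NC arrays (vertical axis) against that of the 3 DSi arrays (horizontal axis) at day 6, 1 point per gene, with the line of equal signal. The 610 red genes were higher in NC and the 621 blue genes lower; WNT1 and TFAP2B sit at the left edge, at background in DSi, and LHX2 and SIX3 at the lower edge, at background in NC.

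Markers of the cell types that the labels name, and of others that such cultures could hold, were read first. All 5 crest markers (SOX10, FOXD3, TFAP2A, TFAP2B, PAX3) were above background on every NC array, and 2 of them, SOX10 and TFAP2A, on every DSi array; their summed linear signal ran from 1919 to 4159 in NC and from 214 to 323 in DSi. All 5 forebrain markers (PAX6, LHX2, SIX3 and RAX among them) were above background on every DSi array, with sums of 4943 to 7936, against 1 or 2 of 5 and sums of 828 to 894 in NC, where nearly all of it was PAX6. Of the stem cell markers, NANOG was not above background on any of the 6 arrays, and the sum of POU5F1, NANOG and PRDM14 was 78 to 90 in NC and 112 to 192 in DSi. The 4 endoderm markers and the 3 melanocyte markers (MITF, TYR, MLANA) were at background on all 6 arrays. The endoderm markers still summed to 97 to 103 in NC and 91 to 100 in DSi, and the melanocyte markers to 69 to 90 and 73 to 80. Genes at background thus add to every sum given here. PMEL, a pigment cell gene of the melanocyte list that was not among these markers, was above background on all 6, with means of 10.66 in NC and 10.44 in DSi. Mesoderm markers summed to 134 to 165 in NC and 115 to 136 in DSi, with MSGN1 at background throughout and MEOX1 above background on 3 NC and 2 DSi arrays. Surface ectoderm markers summed to 210 to 332 and 213 to 323, with TP63 at background, and neuronal markers to 118 to 179 and 164 to 183, with ELAVL4 at background. No crest or forebrain marker went against its label at this day, though SOX10 and TFAP2A were also detected in DSi and PAX6 in NC. These markers belong to lists chosen with earlier results of these data known, so they give no independent check of the labels. In those lists 9 crest and 6 border genes were higher in NC and 1 and 2 lower. Of the forebrain genes, 9 were lower and 0 higher.

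Most WNT feedback genes were higher in NC. Of the 11 that could be tested of 13 listed, 6 were higher, 0 lower and 5 did not pass, with a list median of 1.55 against 0.00 over all genes. AXIN2, the scaffold of the complex that destroys beta-catenin, gave 11.42, 11.37 and 11.64 on the NC arrays and 8.08, 8.41 and 8.44 on the DSi arrays. The NC arrays all lay above the DSi arrays, and the difference was 3.16 (SE 0.17, adjusted p = 3.01e-18). The SP5 transcript, whose promoter is shown above, gave 8.74, 8.68 and 8.66 on the NC arrays and 5.93, 6.56 and 6.93 on the DSi arrays, a difference of 2.22 (SE 0.31, adjusted p = 1.15e-06). The DSi arrays of SP5 spread over more than the NC arrays, which were nearly equal. NKD1, which acts on Dishevelled to dampen the pathway, was not above background on any DSi array and was at least 5.04-fold higher in NC (adjusted p = 3.02e-12). TNFRSF19, a receptor of the tumour necrosis factor family, the membrane WNT inhibitor gene APCDD1 and LEF1, the DNA-binding partner of beta-catenin, differed by 2.96 (SE 0.30, adjusted p = 3.71e-10), 2.65 (SE 0.34, adjusted p = 1.58e-07, 2 of 3 DSi arrays above background) and 1.55 (SE 0.27, adjusted p = 8.04e-05). DKK1 stood at 1.14 (adjusted p = 0.0982, with alternatives from 0.0240 to 0.476), ZNRF3 at 0.67, CCND1 at -0.36 and NOTUM at 0.05, without passing, and RNF43, at background in DSi, did not pass either.

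WNT genes themselves were read as ligands, receptors and antagonists. Of 9 ligands tested of 12 listed, 4 were higher, 1 lower and 4 did not pass, with a median of 0.55. WNT1, the ligand of the dorsal midbrain and roof plate, gave 9.77, 10.21 and 10.79 on the NC arrays and 4.52, 4.49 and 4.51 on the DSi arrays. All DSi arrays were at background, so that WNT1 was at least 33.6-fold higher in NC (adjusted p = 9.86e-17), the highest bound of any gene in that direction. WNT10B, WNT3A and WNT4 were also at background on all DSi arrays and were at least 7.36-fold higher in NC (adjusted p = 5.37e-14), at least 4.69-fold higher in NC (adjusted p = 1.63e-07) and at least 2.42-fold higher in NC (adjusted p = 0.000380). WNT5B, which mostly signals without beta-catenin, was the ligand that went the other way, at -1.90 (SE 0.24, adjusted p = 9.31e-08). WNT3, above background on 1 NC array and on no DSi array, had an adjusted p of 0.0558 (with alternatives from 0.00784 to 0.233), and WNT5A, WNT6 and WNT7B did not pass.

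Receptors and secreted antagonists were mostly lower or did not pass. Of 15 WNT receptors, 1 was higher, 4 lower and 10 did not pass, with a median of -0.28. FZD5, a Frizzled receptor of the anterior neural plate and eye field, gave 5.71, 5.31 and 5.63 on the NC arrays and 8.66, 9.05 and 7.75 on the DSi arrays, a difference of -2.94 (SE 0.34, adjusted p = 1.43e-08, 2 of 3 NC arrays above background). Its relatives FZD8 and FZD4 differed by -1.84 (SE 0.27, adjusted p = 2.55e-06) and -1.46 (SE 0.23, adjusted p = 1.74e-05). LRP5 stood at -0.77 (SE 0.20, adjusted p = 0.0102); its call was lost with median scaling, without DSi replicate 2 and without NC replicate 3. ROR1, a receptor for WNT5A, was higher by 1.15 (SE 0.20, adjusted p = 0.000101), which did not pass (adjusted p = 0.0792) when a gene's probes were averaged. Of 6 antagonists tested of 7 listed, 0 were higher and 3 lower, with a median of -1.07. FRZB, a secreted Frizzled-related protein that binds WNT ligands, gave 8.55, 8.43 and 8.33 on the NC arrays and 11.63, 11.03 and 10.53 on the DSi arrays, and its difference was -2.62 (SE 0.25, adjusted p = 1.48e-10). SFRP1 and SFRP2, of the same family, differed by -1.74 (SE 0.19, adjusted p = 4.26e-09) and -1.87 (SE 0.23, adjusted p = 4.26e-08), and no DSi array of these 3 genes came as low as any NC array.

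**Figure D2:**
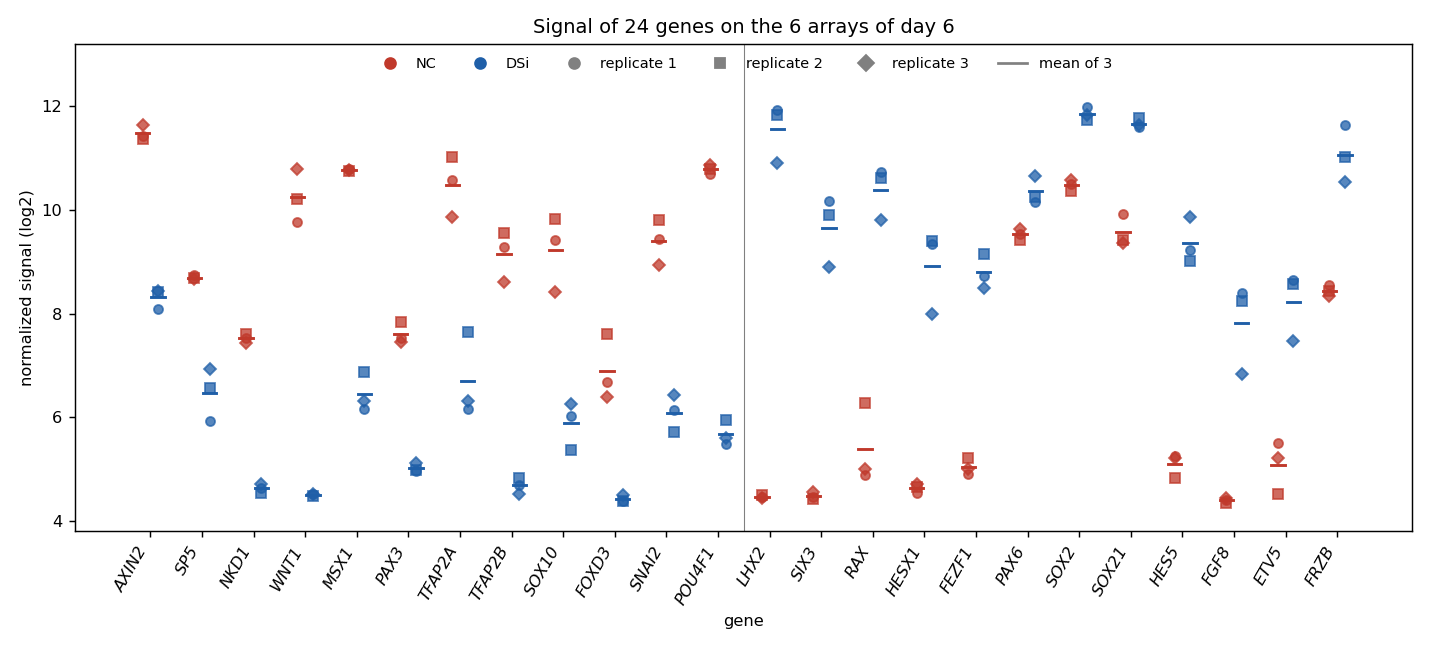
Log2 normalized signal of 24 genes on each of the 6 arrays (red NC, blue DSi; marker shape gives the replicate number, bars the mean of 3). In the left 12 genes every NC array lies above every DSi array and in the right 12 below; the signals of NC for LHX2, SIX3 and FGF8 lie at background, near 4.5.

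Genes of the neural plate border and of neural crest made up many of the largest differences towards NC. Of 15 border genes, 6 were higher, 2 lower and 7 did not pass, with a median of 0.29. MSX1, a homeobox repressor of the border, gave 10.78, 10.74 and 10.78 on the NC arrays and 6.16, 6.87 and 6.31 on the DSi arrays. The NC values differed by less than 0.05 from each other and lay far above DSi, for a difference of 4.32 (SE 0.22, adjusted p = 5.41e-19). TFAP2A, an AP-2 factor needed for crest and surface ectoderm, gave 10.58, 11.02 and 9.86 on the NC arrays and 6.15, 7.65 and 6.31 on the DSi arrays, and although DSi replicate 2 stood above the other DSi arrays the groups did not overlap (3.78 (SE 0.36, adjusted p = 1.03e-10)). TFAP2B, its relative, was at least 15.6-fold higher in NC (adjusted p = 1.04e-17) and the paired-box gene PAX3 at least 5.35-fold higher in NC (adjusted p = 2.00e-10). TFAP2C and MSX2 differed by 1.66 (SE 0.29, adjusted p = 7.24e-05) and 1.52 (SE 0.31, adjusted p = 0.000716, 1 of 3 DSi arrays above background); the MSX2 arrays overlapped between the groups, and its adjusted p was 0.0647 with only the arrays compared. DLX5, which marks the outer border and placodes, went the other way at -2.25 (SE 0.53, adjusted p = 0.00455), and so did PRDM1, which was at least 1.83-fold lower in NC (adjusted p = 0.00570); the DLX5 call was lost without DSi replicate 2 (adjusted p = 0.0925, with alternatives up to that value) and the PRDM1 call under 4 alternatives. ZIC2, ZIC5 and HES4 lay between -0.12 and 0.29 and did not pass, nor did PAX7; ZIC1 and KLF4 were at background on all 6 arrays.

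Of 17 crest genes tested of 18 listed, 9 were higher, 1 lower and 7 did not pass, with a median of 1.30. SOX10, the HMG-box factor that maintains migrating crest, gave 9.41, 9.83 and 8.42 on the NC arrays and 6.02, 5.37 and 6.26 on the DSi arrays. All DSi arrays were above background yet below every NC array, and the difference was 3.34 (SE 0.24, adjusted p = 2.21e-14). SNAI2, a zinc finger repressor that loosens epithelia, gave 9.45, 9.80 and 8.93 on the NC arrays and 6.13, 5.71 and 6.42 on the DSi arrays, a difference of 3.30 (SE 0.24, adjusted p = 1.25e-14). FOXD3, a winged-helix factor of early crest, was at background on all DSi arrays and was at least 3.27-fold higher in NC (adjusted p = 3.79e-11). SOX8 and SOX9, which act beside SOX10, differed by 2.08 (SE 0.27, adjusted p = 1.98e-07) and 1.30 (SE 0.31, adjusted p = 0.00446). ETS1, a factor of cranial crest, differed by 1.39 (SE 0.20, adjusted p = 1.59e-06), ERBB3, a receptor for neuregulin, by 1.52 (SE 0.26, adjusted p = 6.98e-05) and the helix-loop-helix factor TWIST1 by 1.75 (SE 0.32, adjusted p = 0.000229, 1 of 3 DSi arrays above background). The endothelin receptor EDNRB stood at 1.58 (SE 0.35, adjusted p = 0.00201), a call that was lost under 3 alternatives (adjusted p up to 0.253). CDH11, an adhesion molecule of migrating crest, was lower in NC by -1.34 (SE 0.27, adjusted p = 0.000687). NGFR, the low-affinity neurotrophin receptor often used to sort crest, stood at 0.41 with an adjusted p of 0.700, and ITGA4, KIT, MYCN, RXRG, TFAP2E and CDH6 did not pass either.

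Of the 12 genes with the largest measured differences towards NC, 2 were outside the lists, and both encode receptors. EDNRA, the endothelin receptor of facial crest, gave 9.42, 9.99 and 9.08 on the NC arrays and 4.94, 5.07 and 5.51 on the DSi arrays, a difference of 4.33 (SE 0.27, adjusted p = 3.59e-16, 1 of 3 DSi arrays above background). COLEC12, a scavenger receptor with a collectin domain, gave 9.40, 9.64 and 10.12 on the NC arrays and 5.27, 6.21 and 6.88 on the DSi arrays, a difference of 3.60 (SE 0.31, adjusted p = 5.39e-12). No NC array of either gene overlapped with DSi. Genes at background on all DSi arrays included NPY, the neuropeptide Y gene, which was at least 8.97-fold higher in NC (adjusted p = 1.07e-09), TNFRSF11B, the decoy receptor osteoprotegerin, which was at least 4.93-fold higher in NC (adjusted p = 4.94e-13), FAM181B, which was at least 4.74-fold higher in NC (adjusted p = 8.45e-08), and KANK4, which was at least 3.39-fold higher in NC (adjusted p = 2.43e-05). The NC arrays of NPY spread from 7.30 to 9.40 and those of KANK4 from 5.70 to 8.15, with replicate 3 lowest and replicate 2 highest in both. The same order of the NC arrays held for 6 of the 9 crest genes that were higher in NC, SOX10, SNAI2 and FOXD3 among them, against 22.3% of all 610 genes higher in NC.

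Most forebrain and eye field genes were lower in NC, and most genes of midbrain, hindbrain and roof plate higher. Of 15 forebrain and eye field genes tested of 18 listed, 0 were higher, 9 lower and 6 did not pass, with a median of -0.88 (-0.83 with genes at background set to their bound). LHX2, a LIM homeobox factor of the eye field and cortex, gave 4.46, 4.51 and 4.44 on the NC arrays and 11.92, 11.84 and 10.90 on the DSi arrays. NC was at background throughout, and LHX2 was at least 82.9-fold lower in NC (adjusted p = 1.73e-25), the highest bound in that direction. SIX3, which represses WNT1 in the anterior neural plate of the mouse, gave 4.47, 4.43 and 4.56 on the NC arrays and 10.16, 9.90 and 8.89 on the DSi arrays and was at least 22.1-fold lower in NC (adjusted p = 1.17e-17). RAX, needed for eye formation, gave 4.88, 6.28 and 5.0 on the NC arrays and 10.74, 10.62 and 9.80 on the DSi arrays, where 1 NC array was above background, and the difference was -5.0 (SE 0.33, adjusted p = 1.71e-15, 1 of 3 NC arrays above background). HESX1, an early anterior homeobox repressor, and the zinc finger gene FEZF1 were at least 13.3-fold lower in NC (adjusted p = 4.30e-15) and at least 12.2-fold lower in NC (adjusted p = 1.25e-13). EMX2, a factor of the cortex, differed by -1.64 (SE 0.32, adjusted p = 0.000481). PAX6 gave 9.54, 9.42 and 9.63 on the NC arrays and 10.16, 10.25 and 10.66 on the DSi arrays and remained above background on all 6 arrays; the difference was -0.83 (SE 0.23, adjusted p = 0.0187), lost under 4 alternatives (adjusted p up to 0.154). LHX5 passed as well, at -0.84 (SE 0.25, adjusted p = 0.0301), a call lost under 7 alternatives. OTX2, which marks forebrain and midbrain alike, stood at 0.48 (adjusted p = 0.139), with OTX1 at 0.47.

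Of 12 midbrain and hindbrain genes tested of 18 listed, 8 were higher, 0 lower and 4 did not pass, with a median of 1.37. LMX1A, a LIM homeobox factor of the roof plate and dorsal midline, gave 9.31, 9.55 and 9.97 on the NC arrays and 5.33, 6.16 and 6.59 on the DSi arrays, a difference of 3.58 (SE 0.46, adjusted p = 1.57e-07). DMBX1, a homeobox gene of the midbrain, was at background on all DSi arrays and was at least 4.35-fold higher in NC (adjusted p = 1.07e-06). BARHL1, also a homeobox gene of midbrain and dorsal brain, gave 8.53, 8.26 and 8.05 on the NC arrays and 4.53, 4.60 and 7.09 on the DSi arrays. Its DSi replicate 3 stood well above the other DSi arrays, which were at background, and the difference was 2.87 (SE 0.57, adjusted p = 0.000566, 1 of 3 DSi arrays above background). The Iroquois genes IRX5, IRX3 and IRX2 were above background on all 6 arrays and differed by 1.94 (SE 0.25, adjusted p = 2.21e-07), 1.64 (SE 0.21, adjusted p = 2.92e-07) and 1.19 (SE 0.19, adjusted p = 1.09e-05). MEIS2, a homeobox cofactor, differed by 1.0 (SE 0.20, adjusted p = 0.000629), a call lost (adjusted p = 0.0516) when probes were averaged. The hindbrain gene EGR2 stood at -0.29 and did not pass. Of 15 HOX and CDX genes, which mark hindbrain and spinal cord, 5 could be tested and 0 passed in limma, also 0 at an unadjusted p under 0.05, which 15.6% of all genes had. Of these 5, CDX4 and HOXB5 were at background on all 6 arrays, so the values say little about this list.

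**Figure D3:**
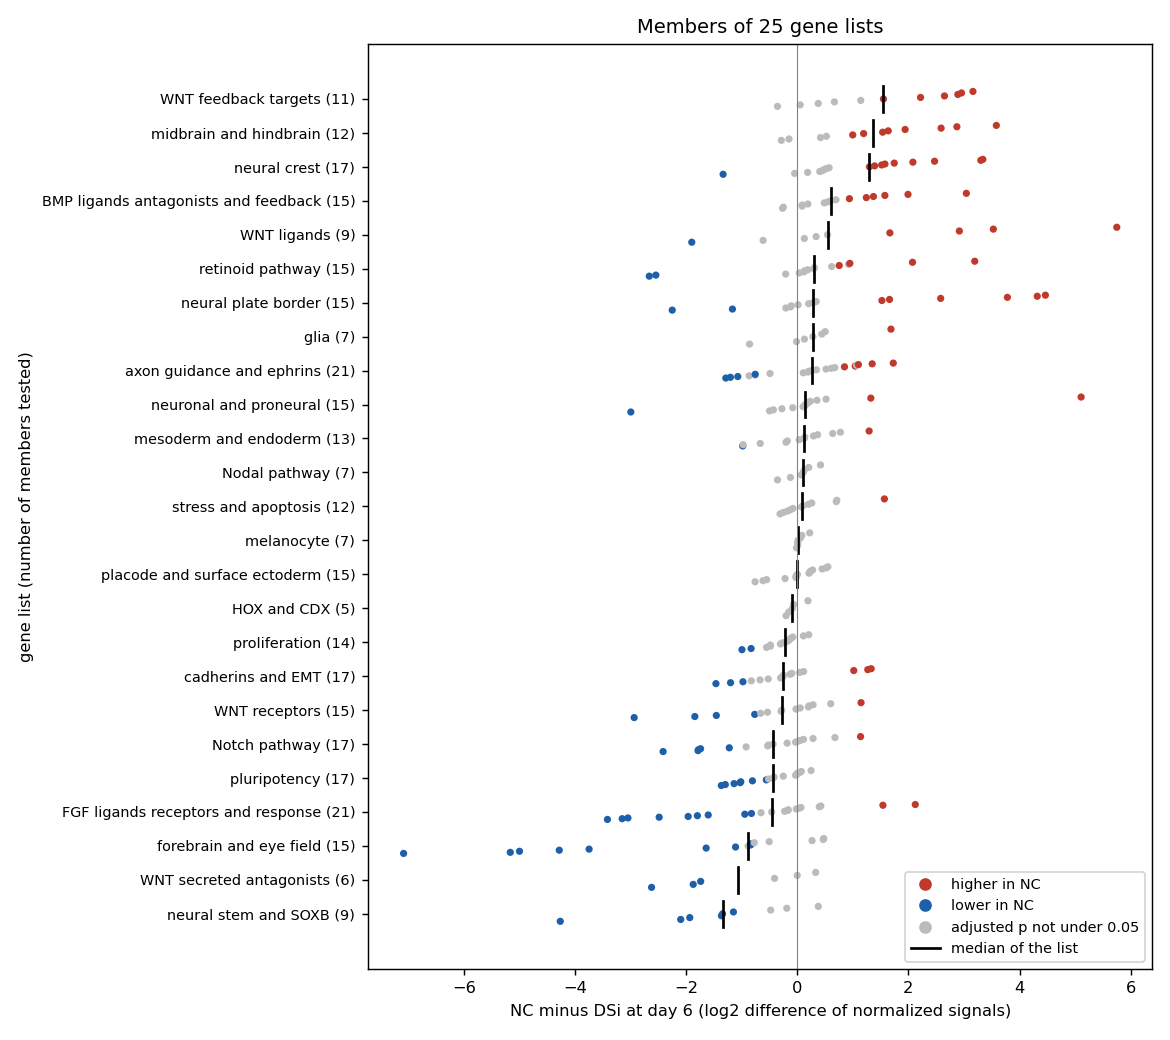
Log2 difference of NC minus DSi at day 6 for every tested member of 25 gene lists, ordered by list median (black bar); red members were higher in NC and blue ones lower at an adjusted p under 0.05. WNT feedback, midbrain and hindbrain, and crest lists have the highest medians, at 1.55, 1.37 and 1.30, and the neural stem list the lowest at -1.34.

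Most genes of neural stem cells were lower in NC, though many remained well above background. Of 9 tested of 10 listed, 0 were higher, 6 lower and 3 did not pass, with a median of -1.34. SOX2, the SOXB1 factor shared by stem cells and neural progenitors, gave 10.50, 10.36 and 10.58 on the NC arrays and 11.98, 11.73 and 11.83 on the DSi arrays, a difference of -1.37 (SE 0.23, adjusted p = 5.46e-05). SOX3 and SOX21 differed by -1.94 (SE 0.26, adjusted p = 5.61e-07) and -2.10 (SE 0.28, adjusted p = 3.26e-07). HES5, a repressor driven by Notch, gave 5.26, 4.82 and 5.22 on the NC arrays and 9.23, 9.01 and 9.87 on the DSi arrays. Each DSi array stood far above each NC array, and the difference was -4.27 (SE 0.39, adjusted p = 3.14e-11, 2 of 3 NC arrays above background). PROM1 and LIX1 differed by -1.34 (SE 0.21, adjusted p = 1.38e-05) and -1.15 (SE 0.26, adjusted p = 0.00350). NES stood at -0.19 and FABP7 at -0.48 without passing, and PLAGL1, at background in DSi, did not pass.

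The Notch list, which held 17 tested genes, had 1 higher, 5 lower and 11 that did not pass, with a median of -0.43. DLL1, a Notch ligand, gave 8.29, 7.86 and 7.46 on the NC arrays and 10.36, 10.02 and 10.48 on the DSi arrays, a difference of -2.42 (SE 0.29, adjusted p = 3.61e-08). HES1, another Notch target, differed by -1.74 (SE 0.26, adjusted p = 4.96e-06), and the Fringe glycosyltransferase gene MFNG by -1.79 (SE 0.36, adjusted p = 0.000617, 2 of 3 NC arrays above background). DLK1, a transmembrane relative of Notch ligands, was bright in both groups and differed by -1.78 (SE 0.31, adjusted p = 7.83e-05). LFNG differed by -1.22 (SE 0.23, adjusted p = 0.000263) and JAG1 by 1.14 (SE 0.27, adjusted p = 0.00548); the LFNG call was lost when probes were averaged, and the JAG1 call without DSi replicate 1 or 2. HES6 stood at -0.92 (adjusted p = 0.0579, and 0.0171 with the replicate number as a block).

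Of 15 neuronal and proneural genes tested, 2 were higher, 1 lower and 12 did not pass, with a median of 0.15. POU4F1, the POU factor of sensory neurons and of the dorsal midbrain, gave 10.69, 10.80 and 10.86 on the NC arrays and 5.48, 5.95 and 5.59 on the DSi arrays, and its difference of 5.11 (SE 0.29, adjusted p = 1.04e-17) was the largest of any gene detected on both sides. NEUROG2, a proneural helix-loop-helix factor, gave 5.75, 5.86 and 5.07 on the NC arrays and 8.80, 8.79 and 8.09 on the DSi arrays, a difference of -3.0 (SE 0.34, adjusted p = 1.31e-08, 2 of 3 NC arrays above background). GAP43, a protein of growing axons, differed by 1.32 (SE 0.25, adjusted p = 0.000340). Genes of differentiated neurons did not pass, among them STMN2 at -0.43, DCX at -0.50, TUBB3 at 0.52 and ISL1 at -0.08.

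More FGF signalling genes were lower than higher in NC. Of 21 tested of 22 listed, 2 were higher, 9 lower and 10 did not pass, with a median of -0.46 (-0.23 with genes at background set to their bound). Of the ligands, FGF8, made by the anterior neural ridge and the midbrain border, gave 4.41, 4.35 and 4.45 on the NC arrays and 8.39, 8.24 and 6.83 on the DSi arrays; it was at background in NC and was at least 6.22-fold lower in NC (adjusted p = 6.50e-12). FGF9 differed by -1.96 (SE 0.26, adjusted p = 3.60e-07), and FGF2, itself a component of stem cell medium, by -0.83 (SE 0.22, adjusted p = 0.0154), a call lost under 6 alternatives. FGF11, an intracellular relative, was higher by 1.54 (SE 0.33, adjusted p = 0.00139) (adjusted p = 0.0552 without DSi replicate 3). Of the receptors, FGFR2 was higher by 2.12 (SE 0.27, adjusted p = 1.42e-07, 1 of 3 DSi arrays above background), while FGFR1, FGFR3 and FGFR4 lay between -0.16 and 0.42 and did not pass. Among genes that report on the pathway, 6 were lower. ETV5, an ETS factor induced by FGF, gave 5.51, 4.51 and 5.21 on the NC arrays and 8.65, 8.56 and 7.47 on the DSi arrays, a difference of -3.15 (SE 0.31, adjusted p = 3.0e-10, 2 of 3 NC arrays above background). DUSP6, a phosphatase that removes ERK activity, gave 6.45, 6.19 and 5.37 on the NC arrays and 9.23, 9.60 and 8.32 on the DSi arrays, a difference of -3.05 (SE 0.35, adjusted p = 1.28e-08). DSi replicate 3 was the lowest DSi array of ETV5, DUSP6 and FGF8, and it remained above every NC array. SPRY1, SPRY2 and ETV4 differed by -2.49 (SE 0.36, adjusted p = 2.14e-06), -1.80 (SE 0.33, adjusted p = 0.000187) and -1.6 (SE 0.28, adjusted p = 9.17e-05), and DUSP4, at background in NC, was at least 1.13-fold lower in NC (adjusted p = 0.00116, 2 of 3 DSi arrays above background). SPRY4, IL17RD and SPRED1 did not pass.

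Genes of 3 BMP ligands were higher in NC; both groups had received the BMP receptor inhibitor. Of 15 genes tested of 18 listed, 6 were higher, 0 lower and 9 did not pass, with a median of 0.60 (0.49 with genes at background set to their bound). BMP5 was at background on all DSi arrays and was at least 7.21-fold higher in NC (adjusted p = 9.20e-14). BMP2 gave 9.36, 9.71 and 9.77 on the NC arrays and 7.13, 7.76 and 7.98 on the DSi arrays, a difference of 1.99 (SE 0.26, adjusted p = 2.60e-07), and BMP4 gave 9.74, 10.16 and 10.40 on the NC arrays and 8.31, 9.0 and 8.88 on the DSi arrays, a difference of 1.37 (SE 0.28, adjusted p = 0.000939). GREM1, a secreted BMP antagonist, and BAMBI, a decoy receptor, differed by 1.58 (SE 0.32, adjusted p = 0.000915) and 1.24 (SE 0.29, adjusted p = 0.00423), and ID2 by 0.94 (SE 0.19, adjusted p = 0.000553). The target genes ID1 and ID3 stood at 0.09 and 0.55, SMAD6 at 0.19 and SMAD7 at -0.27, without passing, and ID4 was at background on all 6 arrays. NBL1, which encodes a secreted BMP antagonist and was in none of the lists, gave 5.57, 5.02 and 5.51 on the NC arrays and 8.87, 8.74 and 8.49 on the DSi arrays, a difference of -3.33 (SE 0.27, adjusted p = 1.01e-12, 2 of 3 NC arrays above background). The 7 genes of the Nodal pathway had 0 calls in limma and 1 at an unadjusted p under 0.05, against 15.6% of all genes; NODAL, LEFTY1 and CER1 were at background on all 6 arrays.

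In the retinoid pathway 4 of 15 tested genes were higher and 2 lower, with a median of 0.30. NR2F1, a nuclear receptor induced by retinoids and expressed in crest, gave 10.31, 10.59 and 10.59 on the NC arrays and 7.13, 6.57 and 8.22 on the DSi arrays, a difference of 3.19 (SE 0.26, adjusted p = 7.67e-13). STRA6, which takes up retinol, differed by 2.07 (SE 0.30, adjusted p = 2.29e-06, 1 of 3 DSi arrays above background). ALDH1A2, which makes retinoic acid, gave 5.11, 4.87 and 5.10 on the NC arrays and 7.81, 8.05 and 6.85 on the DSi arrays, a difference of -2.55 (SE 0.30, adjusted p = 1.76e-08, 1 of 3 NC arrays above background). CYP26A1, which breaks retinoic acid down, gave 7.11, 7.09 and 7.39 on the NC arrays and 10.50, 11.16 and 7.92 on the DSi arrays, and the difference was -2.66 (SE 0.45, adjusted p = 4.25e-05) with DSi replicate 3 far below the other DSi arrays. CRABP2 and NR2F2 passed at 0.76 (SE 0.18, adjusted p = 0.00602) and 0.95 (SE 0.28, adjusted p = 0.0368), calls lost under 3 and 9 alternatives. ALDH1A3 stood at 0.92 (adjusted p = 0.0516, and 0.0247 with the replicate number as a block).

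Adhesion and guidance genes moved both ways. Of 17 cadherin and EMT genes tested, 3 were higher, 3 lower and 11 did not pass. VIM, the intermediate filament of mesenchymal and progenitor cells, gave 13.51, 13.69 and 13.54 on the NC arrays and 12.33, 12.15 and 12.46 on the DSi arrays, a difference of 1.27 (SE 0.17, adjusted p = 8.75e-07). NCAM1 differed by 1.33 (SE 0.30, adjusted p = 0.00246), and CDH4, a cadherin of neural tissue, was at least 1.81-fold lower in NC (adjusted p = 0.00125). ZEB2, CDH3 and TJP3 passed at 1.02, -1.20 and -0.98, each call lost under 3 alternatives, and CDH2 stood at -0.10. Of 21 axon guidance and ephrin genes tested, 5 were higher and 4 lower. NRP2, a semaphorin receptor of migrating crest, differed by 1.73 (SE 0.31, adjusted p = 9.80e-05, 1 of 3 DSi arrays above background), EPHB1 by 1.35 (SE 0.26, adjusted p = 0.000392), EPHA4 by -1.20 (SE 0.24, adjusted p = 0.000749), EPHB2 by -1.29 (SE 0.24, adjusted p = 0.000214) and the semaphorin gene SEMA6A by -1.07 (SE 0.17, adjusted p = 1.48e-05). SLIT1 and DCC were at background in DSi. SLIT1 was at least 1.29-fold higher in NC, and DCC, above background on 2 of 3 NC arrays, at least 1.10-fold. In limma their log2 differences of 1.10 and 0.85 had adjusted p-values of 2.37e-08 and 6.74e-05. SLIT2 and EFNB2 passed at 1.04 and -0.76, each lost under 4 alternatives. With the replicate number as a block, EFNA1 (1.07, adjusted p = 0.0264), EPHA2 (-0.87, 0.0468) and ROBO1 (-0.76, 0.0456) passed too.

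Stem cell genes were detected at lower signals in NC in part. Of 17 pluripotency genes, 0 were higher, 7 lower and 10 did not pass, with a median of -0.44. ZSCAN10 and DNMT3B differed by -1.37 (SE 0.27, adjusted p = 0.000481) and -1.03 (SE 0.20, adjusted p = 0.000456), and PRDM14, at background in NC, was at least 1.6-fold lower in NC (adjusted p = 0.00246) (adjusted p = 0.0530 on the authors' values). POU5F1 gave 4.47, 4.87 and 5.30 on the NC arrays and 6.23, 6.73 and 5.09 on the DSi arrays; the groups overlapped, its probe may also bind copies of the gene, and the call at -1.14 (SE 0.31, adjusted p = 0.0155, 1 of 3 NC arrays above background) was lost under 7 alternatives. L1TD1, SALL4 and USP44 passed at -1.30, -0.56 and -0.81, calls lost under 4, 3 and 6 alternatives. NANOG and TDGF1, now named CRIPTO, were at background on all 6 arrays, and LIN28A, LIN28B and ZFP42 did not pass. One microRNA gene of stem cells, MIR302C, was singled out after its values were seen. It gave 5.30, 5.03 and 5.20 on the NC arrays and 7.08, 6.39 and 6.57 on the DSi arrays, a difference of -1.50 (SE 0.30, adjusted p = 0.000672, 2 of 3 NC arrays above background). MIR302D, which lies nearby with MIR302A between the genes, was at background on all 6 arrays. The probes are named for the genes, and which form of the RNA they bind is not stated. The mature 3p microRNAs of both genes, printed from RefSeq (GRCh38.p14, minus strand, chr4:112648366-112648388 and chr4:112648006-112648028) with bases 2 to 8 in capitals, share their seed.
hsa-miR-302c-3p: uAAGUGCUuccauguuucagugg
hsa-miR-302d-3p: uAAGUGCUuccauguuugagugu

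Each of the remaining lists held at most 2 calls among 7 to 15 genes tested, where 5.39% of all genes were called. The lists with a call were not below that share. Setting genes at background to their bound moved the median of 2 further lists, axon guidance from 0.26 to 0.20 and glia from 0.28 to 0.13, and of no other. Placode and surface ectoderm genes had 0 of 15 calls in limma and 3 at an unadjusted p under 0.05 (15.6% of all genes had one), with CDH1 at -0.55. Melanocyte genes had 0 of 7 by either measure, and 5 of the 7 were at background on all 6 arrays. In the glia list of 7 tested genes, 1 was higher and 0 lower; MBP, a myelin protein gene, stood at -0.86 (adjusted p = 0.0557, and 0.0224 with the replicate number as a block). Of 13 mesoderm and endoderm genes tested of 22 listed, HAND1 was at least 1.46-fold higher in NC (adjusted p = 0.0254, 2 of 3 NC arrays above background) and FOXA1 was at least 1.36-fold lower in NC (adjusted p = 8.33e-06). The HAND1 call was lost under 7 alternatives. PCNA and MCM2, which serve DNA replication, were the 2 of 14 proliferation genes that passed, at -1.0 (SE 0.19, adjusted p = 0.000329) and -0.83 (SE 0.19, adjusted p = 0.00393), and each was lost under 2 alternatives, among them median scaling. CCND2 stood at -0.55 (adjusted p = 0.0752, and 0.0471 with the block), and MKI67, TOP2A and CCNB1 did not pass. Of 12 stress genes, ATF3, an immediate early factor, was higher by 1.57 (SE 0.23, adjusted p = 4.97e-06), while DDIT3, CDKN1A and HMOX1 did not pass.

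Among the genes outside the lists with the largest measured differences towards DSi, PRSS23, a secreted serine protease, gave 6.36, 6.11 and 6.57 on the NC arrays and 10.19, 9.83 and 10.31 on the DSi arrays, a difference of -3.76 (SE 0.28, adjusted p = 7.37e-14). ZNF385B, a zinc finger gene, is listed under its older name ZNF533 and under ZNF385B, and the 2 entries differed by -3.74 (SE 0.29, adjusted p = 2.19e-13) and -3.23 (SE 0.29, adjusted p = 2.41e-11, 2 of 3 NC arrays above background). KCNJ13, a potassium channel of the retinal pigment epithelium and choroid plexus, gave 5.27, 5.86 and 4.95 on the NC arrays and 8.60, 8.62 and 8.46 on the DSi arrays, a difference of -3.20 (SE 0.26, adjusted p = 1.15e-12, 2 of 3 NC arrays above background). CAPN6, a calpain relative, and ST6GALNAC5, a sialyltransferase of gangliosides, differed by -3.19 (SE 0.27, adjusted p = 3.19e-12) and -3.04 (SE 0.31, adjusted p = 3.94e-10, 2 of 3 NC arrays above background). Genes at background on all NC arrays included NRG1, the ligand of ERBB3, which was at least 14.8-fold lower in NC (adjusted p = 1.40e-15). Its receptor gene ERBB3, given above, was higher in NC. The netrin receptor gene UNC5A was at least 7.02-fold lower in NC (adjusted p = 6.04e-09), LRRC3B was at least 3.42-fold lower in NC (adjusted p = 1.02e-06), DIPK1C was at least 3.33-fold lower in NC (adjusted p = 7.31e-07) and the protocadherin gene PCDH19 was at least 3.15-fold lower in NC (adjusted p = 2.44e-06). EVI1, which now belongs to MECOM, was at least 2.25-fold lower in NC (adjusted p = 3.52e-07).

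The same contrast was read at days 3 and 11, on other arrays, to place day 6 in time. At day 3 only 110 of 22831 genes (0.482%) differed, and at day 11 2539 (11.1%). Of the 110, 41 were also called at day 6 in the same direction (37.3% of the day 3 calls and 3.3% of the day 6 calls). Of the 1231 genes of day 6, 491 were called in the same direction at day 11 (39.9% of the day 6 calls and 19.3% of the day 11 calls), 25 were higher in NC at day 6 and lower at day 11, and 39 the reverse. A total of 22 genes were called in the same direction at all 3 days. DSi day 3 replicate 1 is titled without a suffix found on the other DSi arrays; without it the day 3 count was 71, and it was 61 without NC day 3 replicate 3.

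Of the 11 WNT feedback genes, 3 were already higher in NC at day 3. SP5 already differed by 3.15 at day 3 (adjusted p = 4.57e-09), AXIN2 by 1.30 (adjusted p = 5.34e-06) and TNFRSF19 by 1.46 (adjusted p = 0.00513); at day 11 AXIN2 and TNFRSF19 stood at 1.90 and 2.39, and SP5, at background in DSi, was at least 13.5-fold higher in NC (adjusted p = 3.62e-15). DMBX1 and BARHL1 were higher at day 3 too, by 2.26 and 2.33 (adjusted p = 0.000142 and 0.0388), as 5 of the 12 midbrain and hindbrain genes were. SIX3 was lower at day 3, at -4.22 (adjusted p = 1.36e-13), and so was HESX1, at -1.6 (adjusted p = 0.00136), while LHX2 was at background in both groups and RAX, at background in NC, did not pass. In limma, 0 of the 17 crest and 0 of the 15 border genes passed at day 3 (4 and 1 at an unadjusted p under 0.05, which 6.8% of all genes had). SOX10 stood at 0.02 and MSX1 at 0.42 then. At day 11, 12 of the 17 crest genes were higher and 1 lower, and 12 of the 15 forebrain genes were lower. Of the 12 midbrain and hindbrain genes, 2 were higher and 2 lower at day 11. Their median was 0.44 (0.29 with genes at background set to their bound), and DMBX1 and BARHL1 did not pass then.

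**Figure D4:**
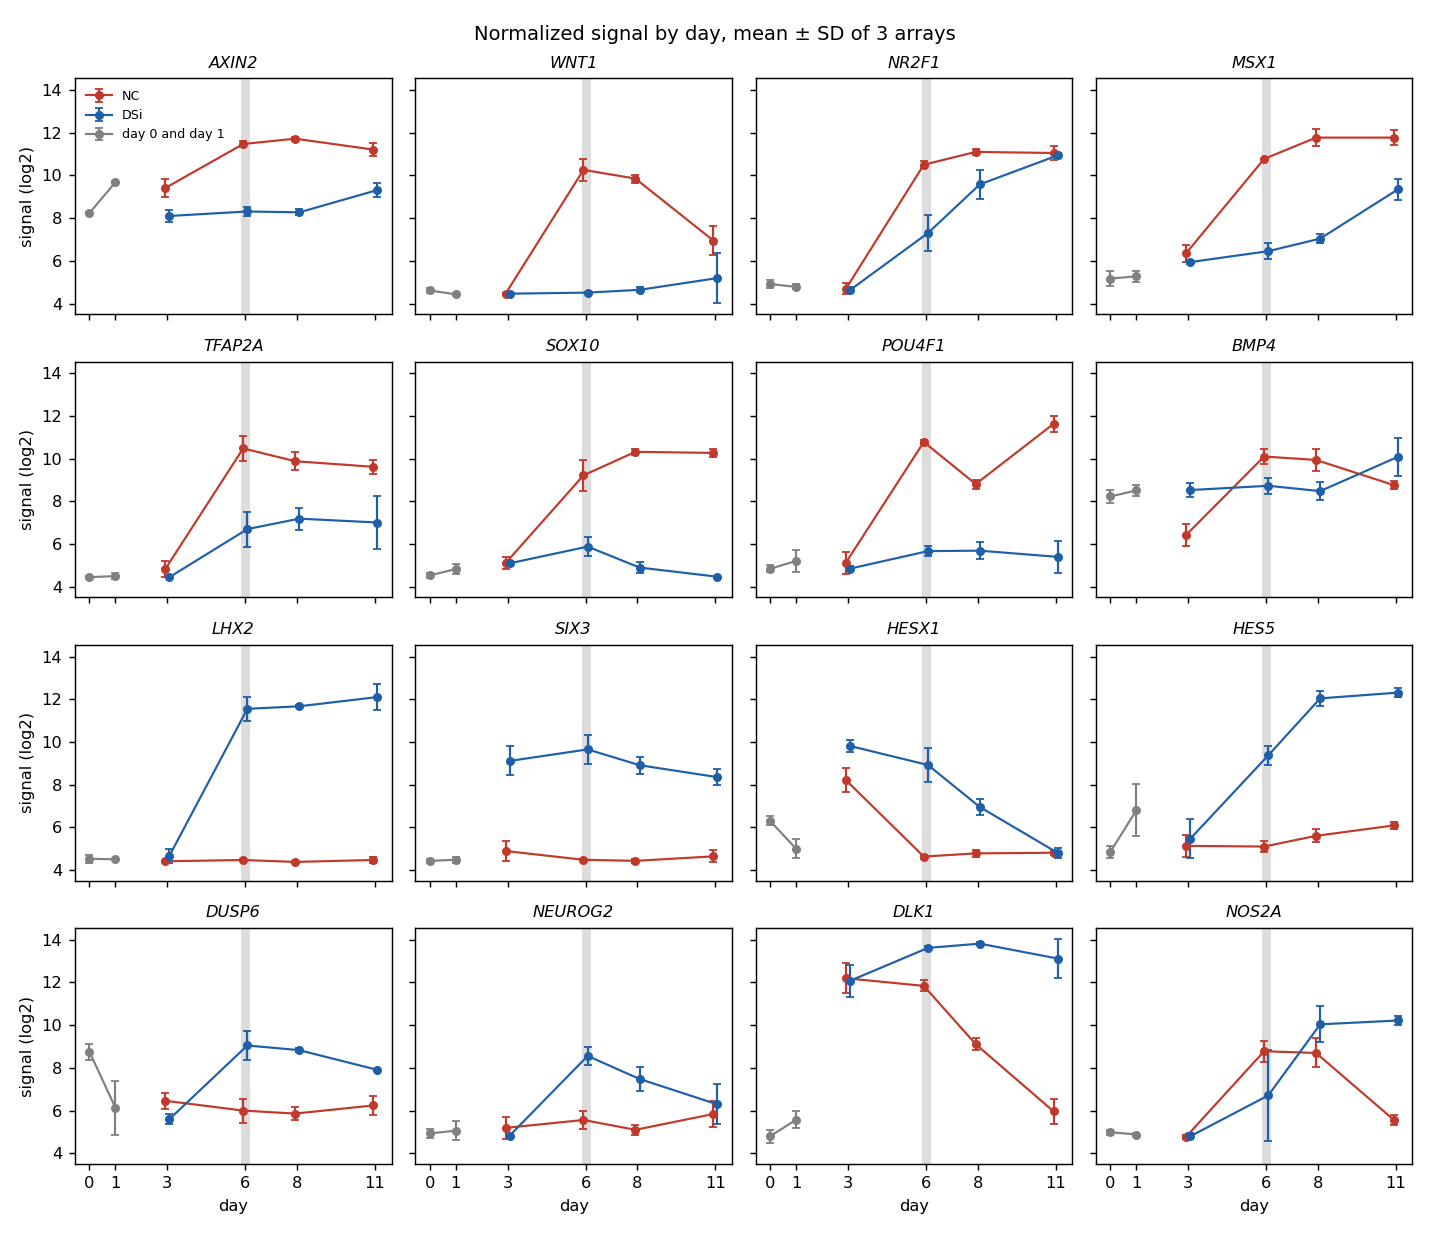
Log2 normalized signal of 16 genes by day (mean ± SD of 3 arrays; red NC, blue DSi, grey the cells of days 0 and 1; day 6 shaded). SIX3 is high in DSi from day 3, LHX2 from day 6. The mean of WNT1 in NC is 10.26 (SD 0.51) at day 6 and 9.85 (SD 0.19) at day 8, a difference that was not tested. NR2F1 differs by only 0.11 at day 11, and HESX1 is then at background in both groups.

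The difference between days was tested directly for every gene; these tests use the day 6 arrays again. From day 3 to day 6, 309 genes changed in their NC to DSi difference (1.35%), 162 upward and 147 downward; with median scaling these were 115 and 53. Changes were ranked among genes above background on at least 1 array of every group involved. This left out genes with larger estimates, among them WNT1, POU4F1, TFAP2B, LHX2 and NRG1. The largest upward changes in this ranking were those of EDNRA, by 4.39 (SE 0.39, adjusted p = 5.47e-11), MSX1, by 3.89 (SE 0.32, adjusted p = 5.90e-12), LMX1A, by 3.69 (SE 0.64, adjusted p = 0.000294), BMP4, by 3.47 (SE 0.40, adjusted p = 6.23e-08), and TFAP2A, by 3.40 (SE 0.51, adjusted p = 1.89e-05). BMP4 changed sign between days 3 and 6 and again by day 11, with NC minus DSi at -2.10 on day 3 (adjusted p = 7.32e-06), 1.37 on day 6 and -1.34 on day 11 (adjusted p = 0.000526). The largest downward changes in the ranking were HES5 at -3.93 (SE 0.55, adjusted p = 5.12e-06), DUSP6 at -3.91 (SE 0.49, adjusted p = 5.34e-07), TMEM74, a membrane protein gene, at -3.47 (SE 0.43, adjusted p = 2.87e-07), NBL1 at -3.39 (SE 0.39, adjusted p = 4.85e-08) and KCNJ13 at -3.10 (SE 0.37, adjusted p = 1.75e-07). Some ranked genes were dim in a group. KCNJ13 was above background on 1 of 3 arrays in each day 3 group, and HES5 on 1 of 3 NC day 3 arrays. TFAP2A was above it on 1 of 3 DSi day 3 arrays and EDNRA on 1 of 3 DSi day 6 arrays. The sizes of these changes rest in part on signals at background. SIX3, already apart at day 3 and at background in NC at day 6, did not pass the test of a change.

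From day 6 to day 11, 1072 genes changed in that difference (4.70%), 571 upward and 501 downward; with median scaling these were 405 and 256. The ranking again covered only genes above background on at least 1 array of every group involved, which left out NPY and WNT1 among others. The largest upward changes in it were ISL1, a LIM homeobox factor of sensory neurons, at 5.53 (SE 0.41, adjusted p = 1.09e-13), STMN2, a tubulin-binding protein of neurons, at 5.32 (SE 0.53, adjusted p = 3.75e-10), MOXD1 at 4.90 (SE 0.43, adjusted p = 8.62e-12), NTN5 at 4.85 (SE 0.39, adjusted p = 5.04e-13) and OLFM1 at 4.40 (SE 0.30, adjusted p = 1.21e-14). MOXD1 and OLFM1 were lower in NC at day 6, by -1.24 and -1.50, and higher at day 11, by 3.66 and 2.91; the day 6 call of MOXD1 was lost under 2 alternatives. The largest downward changes in the ranking were NOS2A and NOS2, an older and a current name of the inducible nitric oxide synthase gene, at -6.72 (SE 0.68, adjusted p = 4.21e-10) and -5.88 (SE 0.68, adjusted p = 1.23e-08), DLK1 at -5.38 (SE 0.44, adjusted p = 8.08e-13), NRIP3 at -3.74 (SE 0.49, adjusted p = 2.46e-07) and ANXA1, an annexin, at -3.64 (SE 0.79, adjusted p = 0.00177). At day 6 NOS2A gave 8.24, 8.92 and 9.18 on the NC arrays and 5.45, 5.50 and 9.19 on the DSi arrays, so that DSi replicate 3 was level with the highest NC array while the others were far below. NTN5 was above background on 1 of 3 arrays in each day 6 group, MOXD1 on 1 of 3 NC day 6 arrays and NOS2 on 1 of 3 DSi day 6 arrays. The sizes of their changes rest in part on signals at background. The NR2F1 difference moved by -3.09 (SE 0.37, adjusted p = 2.64e-08) to 0.11, with both groups above background on all arrays. SOX10 was at background in DSi at day 11 and was then at least 34.3-fold higher in NC (adjusted p = 6.72e-23). The WNT1 difference was smaller at day 11, when 1 of 3 DSi arrays was above background, and HESX1 was then at background in both groups; the sizes of these changes are not given because WNT1 in DSi and HESX1 in NC were at background at day 6.

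**Figure D5:**
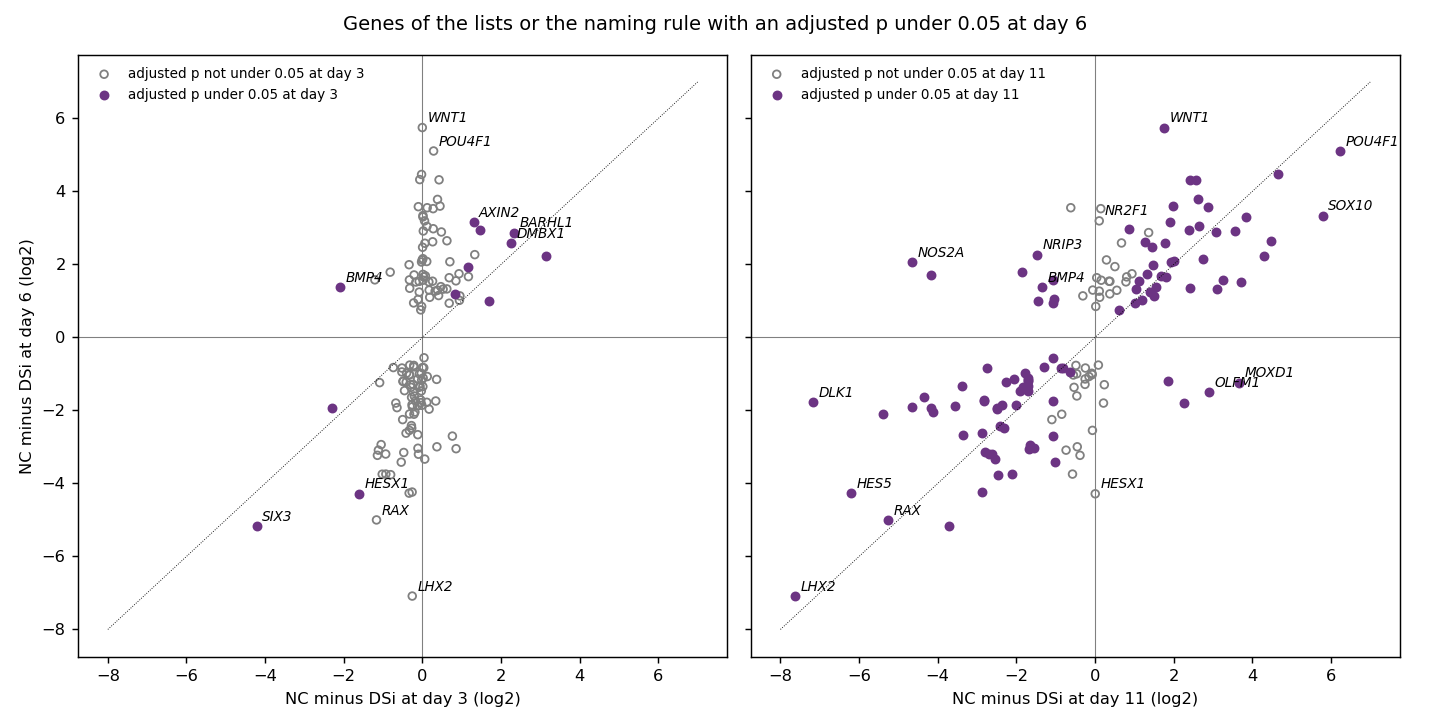
NC minus DSi at day 6 (vertical) against the same difference at day 3 (left) and day 11 (right), in log2 units, for the 147 listed or rule-named genes called at day 6; filled points were also called on the other day and the dotted line marks equal differences. At day 3, 12 are filled, 1 of them with the opposite sign (BMP4); at day 11, 104 are filled, 13 with the opposite sign.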

How the data were processed

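Gene expression was measured on Illumina beadchips. The deposited probe table holds, per the file headers, an average bead signal for each array, a linear intensity not normalized between arrays, and beside it a detection p-value as deposited. A second deposited table holds the authors' values per gene symbol on the log2 scale, which were found, from the values themselves, to be quantile normalized without background subtraction. Partek is named, with no version, in the submitters' processing notes, and its role is not given in the sources used here. That probe table has no gene names, so each gene was tied to the run of probes whose mean signal gives its value through 1 increasing function per array: 34668 of 34687 genes were tied, 34230 by value within 0.002 on the log2 scale and 438 by their place in the table; 19 genes were not. Symbols were updated through RefSeq (GRCh38.p14): 17741 were current, 2730 updated and 14197 kept. CDK1 was not matched and was left out.

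Background was corrected by the normexp model of limma (limma 3.58.1, R 4.3.3; negative controls inferred from detection p-values, offset 16), quantile normalized and logged. Of the probes, 29106 had detection p-values below 0.05 on 3 or more arrays and were kept, and a gene's brightest probe stood for it (22831 genes). One linear model, with 1 mean for each group of arrays, covered all 36 arrays (24 residual degrees of freedom), with empirical Bayes moderation and a trend, two-sided tests and Benjamini-Hochberg adjustment over all genes per comparison. SE is the model's standard error. The code was tested on simulated data. Depth on arrays is limited by their number, 3 a group. Differences are NC minus DSi of log2 normalized signals and shrink at dim genes because of the offset. For a gene not above background on any array of the dimmer group, the brighter mean was set against, per array, the higher of its own signal and the lowest signal above background, as "at least" a fold. The adjusted p beside such a fold is that of the limma test of the log2 difference, and the fold itself was not tested. Figures were drawn with matplotlib 3.10.9.

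Same-numbered arrays share a code of unstated meaning in their titles; their deviations from the group means at day 6 correlated at 0.16, 0.20 and 0.25, so the number was used as a block in an alternative. The gene lists (378 genes in 25 lists), the comparison and the naming rule were chosen with earlier results of these data known. The rule named list members, the 12 largest differences in each direction measured on both sides without overlap, the 12 highest bounds in each direction, and the 5 largest changes in each direction between days. Changes between days were ranked only among genes above background on at least 1 array of every group involved. Uncharacterised symbols were left out of these rankings. Alternatives were median scaling, the authors' values, no background correction, no or a stricter detection filter (detection p under 0.01), the mean of a gene's probes, the block, only the arrays compared, and leaving out each array. Some genes that the rule or the lists hold are not reported here by name; they remain in the counts, medians and sums.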

Additional observations from a re-analysis of the deposited data

Results flagged for a closer look

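The following genes had an NC to DSi difference that itself changed between days, by a test of that change over all genes in limma. For the 2 intervals they are the 5 largest in each direction among genes above background on at least 1 array of every group involved. Their order was chosen from these values. Larger changes of genes at background on all arrays of a group, such as those of LHX2 and WNT1 from day 3 to day 6, are left out.

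From day 3 to day 6 the difference rose by 4.39 for EDNRA, 3.89 for MSX1, 3.69 for LMX1A, 3.47 for BMP4 and 3.40 for TFAP2A on the log2 scale. It changed by -3.93 for HES5, -3.91 for DUSP6, -3.47 for TMEM74, -3.39 for NBL1 and -3.10 for KCNJ13. Of these 10 genes, BMP4 was the one that passed the test in opposite directions, lower in NC at day 3 and higher at day 6.

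From day 6 to day 11 it rose by 5.53 for ISL1, 5.32 for STMN2, 4.90 for MOXD1, 4.85 for NTN5 and 4.40 for OLFM1. It changed by -6.72 for NOS2A, -5.88 for NOS2, -5.38 for DLK1, -3.74 for NRIP3 and -3.64 for ANXA1. At day 6 the DSi arrays of NRIP3 gave 7.44, 7.27 and 9.65 and those of NOS2 4.98, 4.78 and 8.42, so replicate 3 stood far above the other DSi arrays in both. The day 6 calls of NOS2A, NOS2 and ANXA1 were lost under 4, 7 and 9 alternatives.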

How the results depend on the processing

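With median scaling the counts were 604 at day 6, 49 at day 3 (21 higher, 28 lower, or 42.9% higher against 55.5%), 1569 at day 11, 168 for the change from day 3 to day 6 (68.5% higher against 52.4%) and 661 for the change from day 6 to day 11. Of the 604 genes, 600 were among the 1231 in the same direction. With only the arrays of the groups compared, 42 genes passed at day 3, 1681 at day 11 and 167 for the change from day 3 to day 6; the fit then has fewer arrays to estimate the spread. It left 855 at day 6. With the replicate number as a block, 1470 genes passed at day 6, all 1231 among them in the same direction, and the block ended no call among the named genes and made 7 more pass. Without 1 array, counts ran from 864 to 1097 at day 6, from 61 to 165 at day 3, from 2033 to 2297 at day 11, from 238 to 335 for the change from day 3 to day 6 and from 889 to 1071 for the later change. At day 3 they were 71 without DSi day 3 replicate 1 and 61 without NC day 3 replicate 3. Of 147 listed or rule-named genes called at day 6, 34 lost the call under at least 1 of 14 alternatives, and none of the genes named changed sign with a call. Signal over background limits dim genes, whose differences are bounds or are compressed.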

Other observations

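Several genes outside the lists and the naming rule, picked after their values were seen, also differed at day 6. Higher in NC was CPE, a carboxypeptidase that processes neuropeptides, which gave 10.34, 10.16 and 10.67 on the NC arrays and 7.81, 8.00 and 7.90 on the DSi arrays, a difference of 2.49 (SE 0.17, adjusted p = 2.25e-15), and ANXA2 and S100A10, which form one complex at the membrane, differed by 2.42 (SE 0.27, adjusted p = 9.47e-09) and 2.43 (SE 0.23, adjusted p = 5.01e-11). The matrix genes COL1A2 and BGN differed by 1.90 (SE 0.20, adjusted p = 1.06e-09) and 1.78 (SE 0.24, adjusted p = 4.39e-07). DACT1 and DACT2, which both bind Dishevelled, went opposite ways, DACT1 at 2.47 (SE 0.30, adjusted p = 3.61e-08, 1 of 3 DSi arrays above background) and DACT2 at least 1.94-fold lower in NC (adjusted p = 0.00131). WLS, which carries WNT ligands to the cell surface, stood at 1.73 (SE 0.40, adjusted p = 0.00365), and its DSi arrays spread from 9.24 to 11.78.

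Towards DSi, the glypican gene GPC3 gave 9.03, 9.08 and 8.82 on the NC arrays and 11.76, 11.54 and 11.91 on the DSi arrays, a difference of -2.76 (SE 0.25, adjusted p = 1.49e-11). RIPPLY3, a repressor of pharyngeal and placodal development, differed by -2.91 (SE 0.35, adjusted p = 5.32e-08) and had been lower at day 3 too, at -2.22 (adjusted p = 0.000148). ANOS1, the gene of a secreted matrix protein needed by migrating neurons, listed as KAL1, differed by -2.86 (SE 0.28, adjusted p = 2.04e-10, 2 of 3 NC arrays above background). MEG3, an imprinted noncoding RNA beside DLK1, differed by -1.75 (SE 0.39, adjusted p = 0.00210, 2 of 3 NC arrays above background), in the direction of DLK1. IGFBP3, which binds insulin-like growth factors, was lower at day 6, at -2.06 (SE 0.40, adjusted p = 0.000441), and higher at day 11, at 1.88 (adjusted p = 0.000568). The transcription factor gene SP8 was higher in NC at day 3 (0.99, adjusted p = 0.0194), lower at day 6 (-1.44, adjusted p = 1.17e-05) and lower by more at day 11 (-4.60, adjusted p = 1.79e-20).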
